A study of Homo sapiens with 4 samples.

Results

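The genes described here are long noncoding genes recognised by their names. Their names start with LINC or with RP, digits and a hyphen, or end in -AS or -IT and a digit. LINC00657, OIP5-AS1 and RP11-446N19.1 were left out by the rule, so 3 rows of that form are not members. The rule found 2686 genes of 9667 in all: 466 LINC genes, 2036 RP genes, 165 -AS (antisense) genes and 19 -IT (intronic transcript) genes. The 9667 are the genes deposited, under names that give a length above 3 kb and a minimum gap of 2 kb. Bins were read from each gene's start to its end, or to 100 kb. FLASH-seq, in which ultraviolet light fixes RNA to the proteins that touch it and streptavidin beads then catch a biotin-tagged protein, was run on 4 libraries of RPE1, a telomerase-immortalised human line of the retinal pigment epithelium. All 4 carried the background that the labels call RPE1 iCas9 p53/puro-dKO with CFAP20-KO, a name that gives a Cas9 transgene, the loss of p53 and puro, and the loss of CFAP20. The 2 CFAP20-KO libraries had no other change and were the negative control. The 2 tagged-CFAP20 libraries came from these cells expressing FLASH-BIO-CFAP20, and the series asks whether CFAP20, a protein of cilia, binds RNA. Neither the promoter of the tagged protein nor the number of clones is given in the sources used here.

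Long noncoding RNAs are transcripts that are not known to be translated into a protein. Many are spliced and polyadenylated like messenger RNAs, but they are mostly weakly expressed, often stay in the nucleus and differ strongly between cell types. LINC genes are named for lying between coding genes, -AS genes lie opposite or beside a coding gene, -IT genes lie within an intron, and the RP names come from the genomic clones on which a gene was first annotated. The names are older than the current annotation. Of 2573 members whose identifier is in GENCODE 44, 2466 are lncRNAs and 52 are TEC, a class for loci that await experimental proof. A further 32 are now protein coding, among them LINC01420, which is NBDY, the gene of a microprotein of the mRNA decapping machinery. Another 113 identifiers had no match.

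The sequences of 5 bins of 200 bp are shown as examples of stretches where reads were dense. The first is the bin with most read overlaps in KCNMA1-AS3, which held the most signal of all members and lies within KCNMA1. The others are the densest bin in 4 of 5 members with a dense bin free of other genes. Dense means at least 8 overlaps pooled over the tagged-CFAP20 libraries. The bins printed also had at least 2 overlaps in each of these libraries. A read overlap is 1 read touching 1 bin. The sequences are hg38, printed 5′ to 3′ on the gene's strand, which is the minus strand for RP11-1334A24.5 and LINC01355. They lie at chr10:77365504-77365703 (KCNMA1-AS3), chr5:177479557-177479756 (RP11-1334A24.5), chr1:23284053-23284252 (LINC01355), chr7:79459658-79459857 (MAGI2-AS3) and chr15:82095694-82095893 (LINC01583). Capitals mark bases in an annotated exon of the gene.
KCNMA1-AS3: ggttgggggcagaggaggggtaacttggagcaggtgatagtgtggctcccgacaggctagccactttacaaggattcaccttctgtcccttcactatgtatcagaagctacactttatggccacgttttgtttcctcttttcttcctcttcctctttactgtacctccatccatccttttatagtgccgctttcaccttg
RP11-1334A24.5: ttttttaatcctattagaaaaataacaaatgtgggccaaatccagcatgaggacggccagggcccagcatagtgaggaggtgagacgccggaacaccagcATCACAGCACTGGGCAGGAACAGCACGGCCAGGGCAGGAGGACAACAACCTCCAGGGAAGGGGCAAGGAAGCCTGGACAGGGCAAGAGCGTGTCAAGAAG
LINC01355: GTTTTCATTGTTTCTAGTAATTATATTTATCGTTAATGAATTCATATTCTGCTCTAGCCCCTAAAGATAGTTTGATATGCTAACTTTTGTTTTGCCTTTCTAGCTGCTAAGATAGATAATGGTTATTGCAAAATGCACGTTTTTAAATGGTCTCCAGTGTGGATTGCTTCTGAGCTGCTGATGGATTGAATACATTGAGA
MAGI2-AS3: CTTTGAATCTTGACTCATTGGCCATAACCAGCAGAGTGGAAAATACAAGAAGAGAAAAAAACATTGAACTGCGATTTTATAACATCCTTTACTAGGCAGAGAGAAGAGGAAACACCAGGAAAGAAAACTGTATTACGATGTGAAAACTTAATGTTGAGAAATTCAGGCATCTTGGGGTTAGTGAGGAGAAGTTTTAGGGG
LINC01583: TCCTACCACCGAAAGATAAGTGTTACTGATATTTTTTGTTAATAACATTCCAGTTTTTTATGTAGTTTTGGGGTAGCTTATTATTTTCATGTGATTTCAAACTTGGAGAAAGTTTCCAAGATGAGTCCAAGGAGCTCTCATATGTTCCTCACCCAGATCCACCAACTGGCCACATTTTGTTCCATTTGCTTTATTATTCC

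The bin of KCNMA1-AS3 lies 11200 bp from the gene start, holds no base of its exons and had 2 and 0 overlaps in the CFAP20-KO libraries against 12 and 6 with the tagged protein. The bin of RP11-1334A24.5 (TEC) spans the gene start, with 100 exonic bases, and had 0 and 0 against 7 and 6 overlaps. The bins of LINC01355, MAGI2-AS3 and LINC01583 are exonic over all 200 bases. They had 0 overlaps in each control library. With the tagged protein, LINC01355 had 2 and 7, MAGI2-AS3 4 and 5, and LINC01583 6 and 3. In all, 36 member bins in 19 members had at least 8 pooled overlaps, without a minimum per library, of which 28 lie under another gene and 15 on an exon of another gene, so the bins shown are a minority chosen mostly for being free of other genes.

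Depth differed strongly between the groups. Over all genes, bins from the gene start to 100 kb past it held 26178 and 11243 read overlaps in the control pair, against 472804 and 382584 in the tagged pair; values are given in the order of replicates throughout. On the deposited scale, 3 reads, the most that a value of 0 allows, were worth 342 and 1141 in the former and 52.9 and 57.4 in the latter. Exons of CFAP20, read through the window of MMP15, held 0 and 0 overlaps in CFAP20-KO and 40 and 39 with the tagged protein. Of the RPE1 markers with a row, LOX, COL1A1 and FLNA but not COL1A2 (3 of 4) had signal in both tagged-CFAP20 libraries. Of markers of other cells, 0 of 3 blood genes and 0 of 2 liver genes had signal in both tagged-CFAP20 libraries, while SNAP25, used for neurons, had 11 and 15 overlaps. The labels do not say that replicates are separate cultures, so p-values reflect library-to-library spread that may be technical.

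The members held little of the RNA recovered. Their signal, summed over all 2686, was 31540 and 46239 in the CFAP20-KO libraries and 69858 and 64052 in the tagged-CFAP20 libraries, resting on 380, 167, 5435 and 4597 read overlaps. The tagged-CFAP20 libraries were the higher 2, and the groups did not overlap. The means were 38889 ± 10394 and 66955 ± 4106 (SD, n = 2 each), a ratio of 1.72, while all other genes gave a ratio of 2.19. These ratios follow the authors' scaling. As a share of each library's gene signal, members held 4.15% (95% Wilson interval 3.70 to 4.66) and 4.27% (3.60 to 5.09) in CFAP20-KO and 3.29% (3.19 to 3.39) and 3.41% (3.30 to 3.52) with the tagged protein, so the share was lower in both tagged-CFAP20 libraries. With each library set to the same total, the ratio for members was 0.795, below 1. In pulled-down bulk RNA, fewer cells with an RNA and less of it per cell cannot be told apart.

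The name classes differed in how their sums moved. LINC genes had a tagged-CFAP20 to CFAP20-KO ratio of 2.20, RP genes 1.66, -AS genes 1.84 and -IT genes 1.15. The LINC sums rest on 42 and 14 overlaps in CFAP20-KO and the -IT sums on 12 and 7, and the differences between classes were not tested. RP genes carried most of the member overlaps, 3638 of 5435 and 3096 of 4597 in the tagged-CFAP20 libraries. The 10 highest members held 20.3% and 29.3% of member signal in the CFAP20-KO libraries and 13.9% and 14.4% with the tagged protein. For the 10 highest of the other genes the share was 4.36% to 4.87%. Members with any signal numbered 180, 90, 861 and 826, against 2181, 1389, 4351 and 4266 other genes. A top 10 holds more of a smaller set, so the shares do not compare how concentrated the signal was.

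Most members had no reads. Signal above 0 was found for 180 and 90 members in CFAP20-KO (6.70% and 3.35%) and for 861 and 826 with the tagged protein (32.1% and 30.8%). The shares among all other genes were 31.2%, 19.9%, 62.3% and 61.1% in the same order. Both tagged-CFAP20 libraries had signal on 542 members and both CFAP20-KO libraries on 37, and 1521 members were at 0 in all 4. Of members above 0 in tagged-CFAP20 replicate 1, 63.0% were also above 0 in replicate 2, and 65.6% the other way round. In CFAP20-KO these shares were 20.6% and 41.1%. At least 10 overlaps in each tagged-CFAP20 library were found for 97 members, against 2323 other genes.

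Members are shorter than the other genes, with median lengths of 10822.5 and 20661 bp, and with the tagged protein the shares with signal rose with length in both. Among genes of 3 to 10 kb, 24.2% and 23.4% of 1266 members had signal in tagged-CFAP20 replicates 1 and 2, against 39.0% and 37.9% of 1948 other genes. Among genes of 100 kb and more, the values were 63.5% and 59.9% of 137 members against 85.5% and 84.6% of 655 others. In each of the 4 length classes and each library the members' share was the lower.

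**Figure D1:**
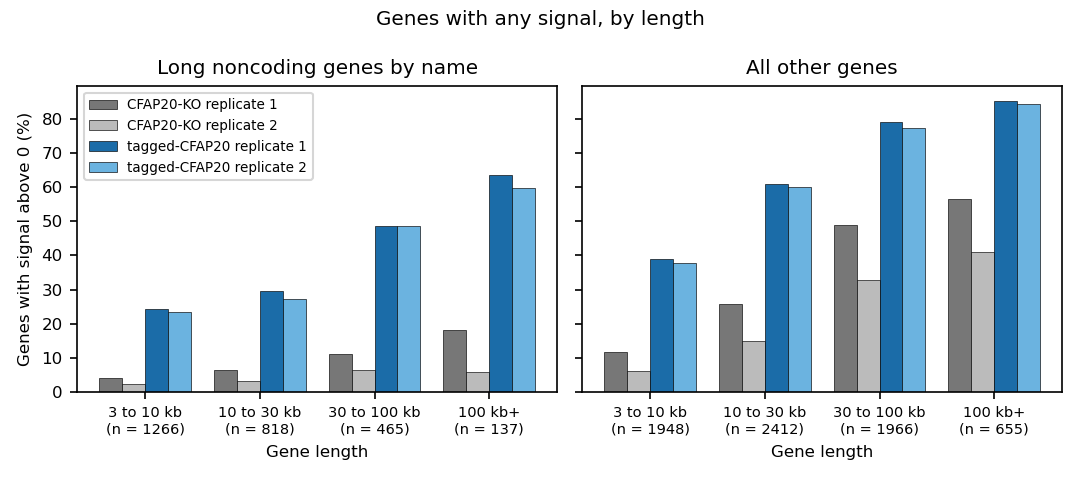
Percent of genes with any signal (y axis) by gene length (x axis, with the number of genes), for long noncoding genes by name (left) and all other genes (right); each bar is 1 library. Shares rise with length in both panels for the tagged-CFAP20 libraries, from 24.2% and 23.4% to 63.5% and 59.9% of members, and stay lower on the left in each class.

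Where the reads lay depended on what else is annotated there. A protein-coding gene overlaps 659 members (24.5%): 7.94% of LINC, 22.9% of RP, 83.0% of -AS and 94.7% of -IT genes. No bin was free of other genes in 846 members, and every bin was free in 1433. Bins shared with another gene held 64.2% and 60.5% of member signal in CFAP20-KO and 56.6% and 56.8% with the tagged protein, against 9.26% to 10.6% for other genes. The signal is not split by strand, so reads in shared bins cannot be assigned to either gene.

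Shared bins were several times as dense as free ones in the members. Signal per kb on members' free bins was 0.26 and 0.43 in CFAP20-KO and 0.71 and 0.65 with the tagged protein. On their shared bins it was 1.26, 1.74, 2.46 and 2.26, which is 4.76, 4.06, 3.46 and 3.49 times the free density. In other genes, shared bins had 0.93, 0.96, 0.82 and 0.87 times the density of free bins. Leaving out the gene with most signal left the members' ratios between 3.31 and 4.53. By class with the tagged protein, RP genes had 2.45 and 2.25 on shared bins against 0.62 and 0.58 on free bins. The -AS genes had 4.71 and 4.19 against 3.04 and 2.84. LINC genes went the other way, with 0.48 and 0.54 on shared bins against 0.68 and 0.59 on free bins. In CFAP20-KO the LINC values were 0.48 and 0.34 against 0.21 and 0.28, on 14 and 3 shared overlaps. Free bins of other genes were 10.6 to 12.9 times as dense as free bins of members. Within members' free bins, the ratio of tagged-CFAP20 to CFAP20-KO was 1.96, and within shared bins 1.57, against 2.22 and 1.98 for other genes.

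Exons stood above introns in the members too. In free bins, own exons of members had 0.46 and 1.11 signal per kb in CFAP20-KO and 2.25 and 1.78 with the tagged protein, and own introns 0.24, 0.36, 0.55 and 0.53. The exon to intron ratio was 4.09 and 3.35 with the tagged protein, and 1.87 and 3.11 in CFAP20-KO on 22 and 16 exonic overlaps. Other genes gave 5.56 and 5.53 with the tagged protein, and 3.78 and 4.00 in CFAP20-KO. Member bins on an exon of another gene were the densest, with 3.18, 4.11, 8.06 and 7.97 signal per kb, against 1.09, 1.53, 1.97 and 1.77 over an intron of another gene. The 113 members without a GENCODE 44 match have no own exon here, and exons of a renamed copy would count as another gene's. With the tagged protein these members held 229 and 174 overlaps over all their bins. Member bins on an exon of another gene held 802 and 732. How far such copies raise these values was not tested. GC content differed little: exonic member bins with tagged-CFAP20 reads had 44.4% ± 10.4 (SD over 784 bins) and those without 43.8% ± 9.69 (19152 bins).

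**Figure D2:**
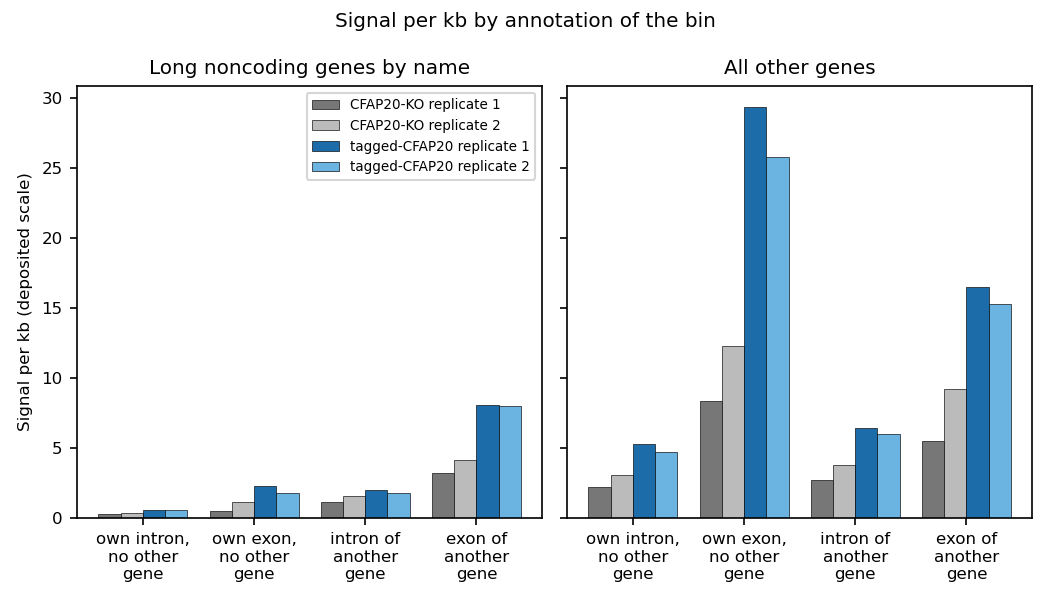
Signal per kb on the deposited scale (y axis, from 0) for 4 kinds of bin (x axis), in long noncoding genes by name (left) and all other genes (right); each bar is 1 library. In members the highest bars are over exons of another gene (8.06 and 7.97 with the tagged protein), while in other genes they are over their own exons (29.4 and 25.7).

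Members lying within 1 coding gene were set beside the rest of that gene's intron. Summed densities were of similar size. More single members were below their host than above it, a count on which the length of the windows bears. For 422 such members, bins without any annotated exon were set beside the host's own intron past the member's end, up to 100 kb from the member's start. Signal per kb was 2.07 and 3.06 on the members and 1.90 and 2.31 on the host intron in CFAP20-KO, and 3.29 and 3.06 against 3.76 and 3.36 with the tagged protein. The ratios of member to host were 1.09, 1.32, 0.875 and 0.912, and 1.01, 1.23, 0.807 and 0.852 without the member that held most signal in each library. The host was denser for 122, 91, 209 and 182 members, the member for 48, 24, 110 and 117, and both were at 0 for the other 252, 307, 103 and 123. The member windows added up to 5161.8 kb and the host windows to 25863 kb. At equal density a short window is at 0 more often, so these counts are not read as a lower density of members. In the 348 members on the opposite strand of the host the ratios were 0.97, 1.16, 0.839 and 0.872, and in the 74 on the same strand 1.89, 2.57, 1.05 and 1.13. Without the member that held most signal in each library, they were 0.86, 1.04, 0.752 and 0.797 on the opposite strand. On the same strand they were then 1.60, 1.72, 0.916 and 0.968, and the CFAP20-KO ratios there rest on 33 and 14 member overlaps. Over all 422 members, the CFAP20-KO values rest on 129 and 57 member overlaps, against 1322 and 1134 with the tagged protein.

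Single members departed from their hosts in both directions, and not always alike in the control and tagged libraries. MYO16-AS1, opposite the myosin gene MYO16, had 32 and 25 exon-free overlaps with the tagged protein and 7 and 1 in CFAP20-KO, while 59.4 kb of MYO16 intron past it had 0 in all 4 libraries. KCNMA1-AS3, opposite the potassium channel gene KCNMA1, had 90.4 and 68.9 signal per kb with the tagged protein against 31.4 and 21.4 on the host intron, and 47.6 and 43.3 against 5.39 and 0 in CFAP20-KO. RP11-366L20.3, opposite HMGA2, the gene of a chromatin architectural protein, had 83.1 and 96.5 against 84.7 and 84.8 with the tagged protein, and 38.3 and 149 against 50.5 and 66.4 in CFAP20-KO. FAM155A-IT1 (NALF1-IT1), on the strand of NALF1, was below its host with the tagged protein, at 19.5 and 17.5 against 29.0 and 20.6, and above it in CFAP20-KO, at 14.4 and 30.0 against 9.43 and 26.2 on 8 and 5 overlaps. DPYD-IT1, within the pyrimidine catabolism gene DPYD, was above its host with the tagged protein, at 17.7 and 16.5 against 12.6 and 12.7, and below it in CFAP20-KO, at 3.27 and 0 against 18.9 and 3.94 on 1 and 0 overlaps. These members were named by their level. They are only some of the named members that have a host window, so they do not show how common either direction is.

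**Figure D3:**
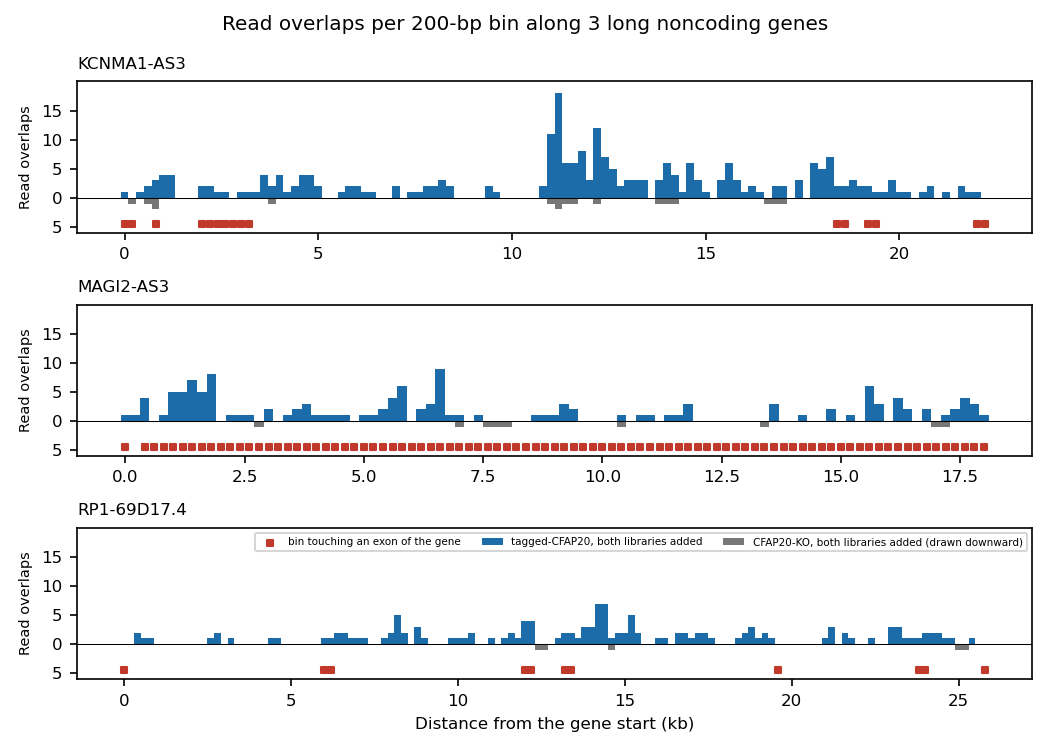
Read overlaps per 200-bp bin (y axis) against the distance from the gene start in kb (x axis) for 3 members; bars up add both tagged-CFAP20 libraries, bars down add both CFAP20-KO libraries, and squares mark bins touching an exon of the gene. In KCNMA1-AS3 the highest bar, 18 overlaps, stands over no exon, while in MAGI2-AS3 nearly every bin touches one.

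Members clear of other genes showed little step in signal at their start, unlike other genes. Over 1349 members that were free over their whole length and short enough for both flanks to be read, the first 2 kb had 0.28 and 0.93 signal per kb in CFAP20-KO and 1.32 and 1.11 with the tagged protein, and gene-free bins in the 2 kb before the start had 0.68, 0.54, 1.17 and 0.88. The ratios were 0.41 and 1.73 on 10 overlaps each in CFAP20-KO, and 1.13 and 1.27 with the tagged protein. The same ratios in 4271 other genes were 6.97, 7.23, 8.36 and 8.51. At the gene end, the last 2 kb of members had 1.55 and 1.07 times the density past the end with the tagged protein, against 4.33 and 4.68 in other genes. In CFAP20-KO the end ratios were 2.84 and 5.32 in members and 4.84 and 3.93 in other genes. Those of members rest on 16 and 6 overlaps in the last 2 kb and 5 and 1 past the end. Without the member that held most signal in the first 2 kb, the start ratios with the tagged protein were 0.99 and 1.15. Without the one that held most in the last 2 kb, the end ratios were 2.31 and 3.55 in CFAP20-KO and 1.41 and 0.88 with the tagged protein. The gene start is the deposited one and need not be the one used in these cells.

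**Figure D4:**
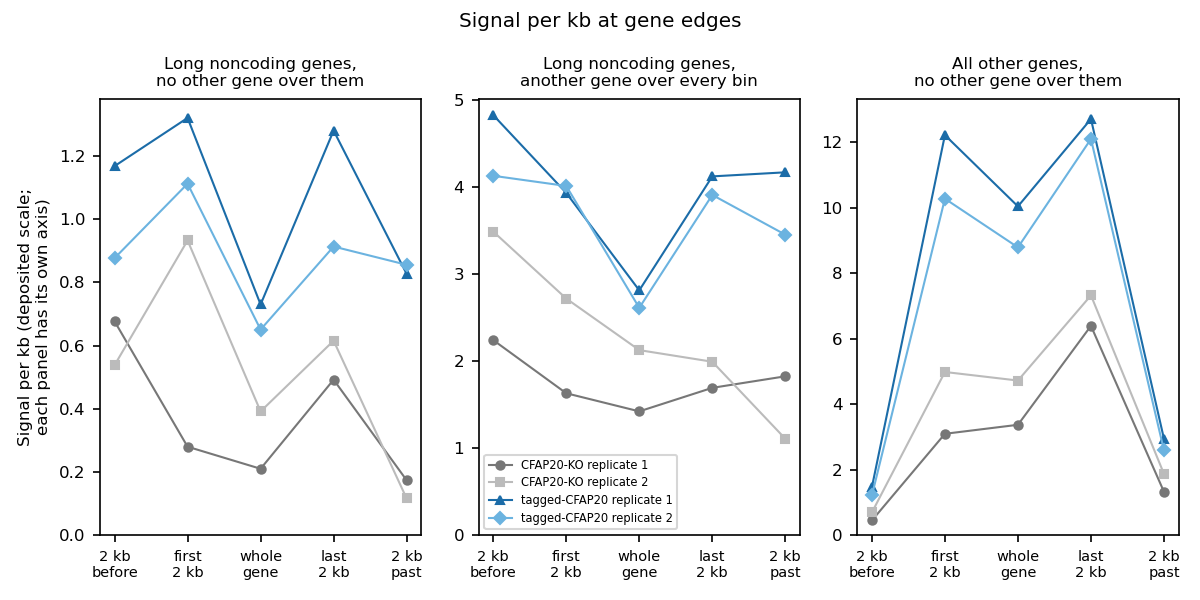
Signal per kb on the deposited scale (y axis, from 0, a separate axis for each panel) in 5 windows along the gene (x axis), for members with no other gene over them (left), members with another gene over every bin (middle) and other genes with none over them (right); each line is 1 library. Flanks in the left and right panels are bins free of genes. With the tagged protein, the left panel goes from 1.17 and 0.88 before the start to 1.32 and 1.11 after it, and the right panel from 1.46 and 1.21 to 12.2 and 10.3.

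The comparison of the 2 groups asked which of these RNAs came down with the tagged protein above the control. Of 582 members above 0 in at least 2 libraries, 138 were called higher with the tagged protein in limma (adjusted p under 0.05) and 0 lower. That is 23.7% of the members tested, beside 23.4% of all 4461 genes tested that rose and 0.0224% that fell, so the members' share was near that of all genes. At an unadjusted p under 0.05, 303 members were higher and 1 lower. The median log2 change of the members tested was 0.16, against 0.37 over all genes tested. The filter bears on these calls: 369 of the 582 members tested were at 0 in both CFAP20-KO libraries, so they entered only through both tagged-CFAP20 libraries, had no spread in the control and could only be higher. All of the 138 except DPH6-AS1, that is 137, are among them, so the count is a description and not evidence of binding. Of the 138, 130 had a tagged-CFAP20 mean under 263.0, the signal of 3 reads in the pooled control. Over all 138, the tagged-CFAP20 libraries held 2 to 52 overlaps each.

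These calls changed with the treatment of the data. They fell to 0 with no filter on low values, with a stricter filter and with each library set to the same total, and so did the calls over all genes. In exact binomial tests of pooled reads, 0 of 582 members rose on the deposited scale beside 6.41% of all genes, and 0 fell as shares of the gene signal beside 0.179% of all genes. With a pseudocount of 10, 310 members rose, beside 37.6% of all genes. Restricting the bins gave 99 of 235 members in the first 3 kb, beside 45.2% of all genes, and 74 of 290 on bins free of other genes, beside 24.9%. Without CFAP20-KO replicate 1, 111 members rose and 49 fell, beside 45.5% and 7.53% of all genes. Without CFAP20-KO replicate 2, 115 rose and 36 fell, beside 45.9% and 2.76%. Without either tagged-CFAP20 replicate, 369 rose, beside 40.4% of all genes in both cases. This equals the number of tested members at 0 in both controls, where the spread comes from the control pair alone and is 0, so these 2 counts follow from the filter.

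The member nearest to passing the exact binomial comparison on the deposited scale, RP11-115J23.1 (LINC02742), was picked out after its values were seen. It had 0 and 0 overlaps in CFAP20-KO and 52 and 33 with the tagged protein, a signal of 564 ± 147 (SD, n = 2). The 95% exact counting interval of its ratio of pooled reads starts at 1.71. Its adjusted p was 0.056 in the exact binomial comparison and 0.0374 in limma. DPH6-AS1 had a signal of 83 and 0 in CFAP20-KO and 488 and 516 with the tagged protein, with a limma log2 change of 1.30 ± 0.27 (SE, adjusted p = 0.0466) and an adjusted p of 0.345 in the exact binomial comparison.

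The 8 members with the smallest p were among the faintest. RP11-24I21.1 (LINC02355), RP11-390P2.4 (NHSL1-AS1) and LINC01075 each had 0 and 0 overlaps in CFAP20-KO and 5 and 5 with the tagged protein. RP11-340A13.3, RP11-554D13.1, RP11-1299A16.3 (TSPAN5-DT), LATS2-AS1 and RP11-248G5.8 had 0 and 0 against 4 and 4. Their limma log2 changes were 0.31 and 0.26, with an adjusted p of 0.0374. Their signals of 67.0 and 53.6 with the tagged protein lie under the 263.0 that the CFAP20-KO libraries could hide, so no fold is given. LATS2-AS1 lies within LATS2, a kinase gene of the Hippo pathway, and the other 7 are not within a coding gene.

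None of the 15 members with the most signal passed limma's threshold. Of those that lie within a coding gene, the one with most signal was KCNMA1-AS3 (chromosome 10, 77354404 to 77376613, plus strand), with a signal of 996 and 1384 in CFAP20-KO and 1851 and 1477 with the tagged protein. The tagged-CFAP20 libraries were higher and the groups did not overlap, but the gap between 1384 and 1477 was smaller than the spread within either group. Its limma log2 change was 0.41 ± 0.29 (SE, adjusted p = 0.344).

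RP11-366L20.3, within HMGA2 (chromosome 12, 65934777 to 65948479, minus strand), had 581 and 1938 in CFAP20-KO and 1208 and 1365 with the tagged protein. The groups overlapped, with the knockout libraries lowest and highest, and the log2 change was 0.18 ± 0.56 (SE, limma adjusted p = 0.822). FAM155A-IT1, within the gene of a sodium-leak channel subunit, had 664 and 1384 against 913 and 822. CFAP20-KO replicate 2 was highest and replicate 1 lowest, so that these groups overlapped too. RP11-397C18.2, within the polarity gene FRMD4A, had 581 and 1108 against 578 and 780. MYO16-AS1 had 581 and 277 against 424 and 362, again with the control libraries at both ends.

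CFAP20-KO replicate 2 set the mean of several of these members. RP11-420K8.1, within the cytoskeletal linker gene MACF1, had 0 and 1661 in CFAP20-KO, the second on 6 overlaps, and 180 and 293 with the tagged protein. RP11-420A23.1 (LINC02615), free of other genes, had 166 and 1938 against 373 and 167, and the 1938 came from 7 overlaps. ANKRD44-IT1, within ANKRD44, had 0 and 554 against 103 and 167. Each of these log2 changes was negative and did not pass (limma adjusted p = 0.733, 0.496 and 0.802 in this order). Without CFAP20-KO replicate 2, RP11-420K8.1 and ANKRD44-IT1 turned to log2 changes of 0.88 and 0.57 and passed, at limma adjusted p of 0.00752 and 0.0285. Without CFAP20-KO replicate 1 they also passed, in the other direction, at -1.93 and -1.02 (limma adjusted p = 1.6e-13 and 0.00143). In both cases the control is 1 library, at 0 for these genes in the former, and the spread comes from the tagged pair alone, so neither call is read as a change.

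Other members inside coding genes were read in CFAP20-KO replicate 1 and not in replicate 2. RP11-544A12.4, within the nuclear pore gene NUP214, had 415 and 0 against 733 and 627. RBMS3-AS2, within RBMS3, the gene of an RNA-binding protein, had 498 and 0 against 681 and 529. In both, the tagged-CFAP20 libraries were the higher 2. The limma log2 changes were 1.13 ± 0.54 and 0.92 ± 0.60 (SE), with adjusted p of 0.186 and 0.298. DPYD-IT1 had 83 and 0 against 450 and 432, on 1 and 0 against 35 and 31 overlaps. Its ratio of pooled reads was 5.03 (95% exact counting interval 0.86 to 203), and its limma adjusted p was 0.0526.

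**Figure D5:**
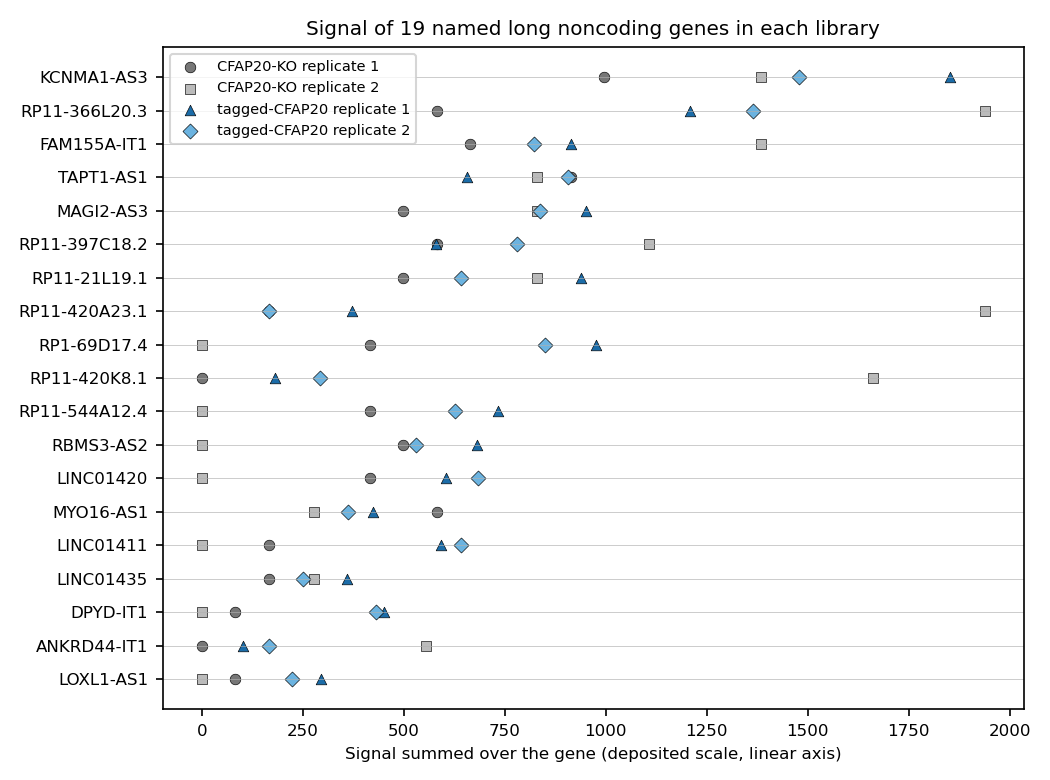
Signal summed over the gene on the deposited scale (x axis, linear) for 19 named members (y axis); each point is 1 library. CFAP20-KO replicate 2 lies at 0 for 7 members and above both tagged-CFAP20 libraries for 6, and the tagged-CFAP20 pair lies closer together than the CFAP20-KO pair in 18 of 19, all but TAPT1-AS1.

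Members beside a coding gene rather than inside it were led by TAPT1-AS1, MAGI2-AS3 and RP11-21L19.1. TAPT1-AS1 (chromosome 4, 16227007 to 16320140), starting beside the membrane protein gene TAPT1 and 97.9% free of other genes, had 913 and 831 in CFAP20-KO and 656 and 906 with the tagged protein, with no separation of the groups. MAGI2-AS3, starting beside the scaffold protein gene MAGI2 and 95.6% free, had 498 and 831 against 951 and 836. The groups did not overlap, by the gap between 831 and 836, and the log2 change was 0.34 ± 0.31 (SE, limma adjusted p = 0.459). Its tagged-CFAP20 reads touched 56 of its 91 bins. RP11-21L19.1 (SPON1-AS1), at the extracellular matrix gene SPON1 and only 50.9% free, had 498 and 831 against 938 and 641, and the groups overlapped. Its free bins held 166 and 554 against 244 and 181, with a log2 change of -0.31 on those bins that did not pass.

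Of the members clear of other genes over nearly all bins, a further 3 described here had more signal in both tagged-CFAP20 libraries than in either control. RP1-69D17.4 (chromosome 6, 129526626 to 129552587, minus strand) had 415 and 0 in CFAP20-KO and 977 and 850 with the tagged protein, on 5 and 0 against 76 and 61 overlaps. Its log2 change was 1.44 ± 0.54 (SE, limma adjusted p = 0.121). LINC01411 had 166 and 0 against 591 and 641, a ratio of pooled reads of 7.12 (95% exact counting interval 1.24 to 285) and a limma adjusted p of 0.0605. LINC01420 (NBDY) had 415 and 0 against 604 and 683, with a log2 change of 1.07 ± 0.54 (SE, limma adjusted p = 0.201). LINC01435 showed no such separation, at 166 and 277 against 360 and 251.

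Few well-studied long noncoding genes had a row. Of 31 listed names, 4 did, and 1, LOXL1-AS1, was above 0 in at least 2 libraries. A missing row can come from the limits on length and gap, so it is not read as missing signal. LINC01133 had 1 overlap, in tagged-CFAP20 replicate 2, and LINC01021 (PURPL) and LINC-ROR were at 0 in all 4. LOXL1-AS1 (chromosome 15, 73908071 to 73919870, minus strand) starts beside LOXL1, the gene of an enzyme that crosslinks elastin. It had 1 and 0 overlaps in CFAP20-KO and 23 and 16 with the tagged protein, a ratio of pooled reads of 3.04 (95% exact counting interval 0.503 to 124). Its limma log2 change was 0.76 ± 0.25 (SE, adjusted p = 0.0922). LOXL1 had 10 and 4 against 161 and 123 overlaps, with a log2 change of 0.80 ± 0.28 (SE, limma adjusted p = 0.105). Per kb, LOXL1-AS1 had 24.6 and 18.6 signal with the tagged protein and LOXL1 80.2 and 66.4.

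The gene that an -AS or -IT member is named after had a row for 15 of the 184 such members. The limits on length and gap bear on which of these genes had a row. With the tagged protein, signal per kb was higher in the named gene for 10 and 8 pairs, higher in the member for 3 and 2, and 0 in both for 2 and 5. At equal density the shorter gene of a pair is at 0 more often, so these counts are not read as a difference in density. Some of these members also overlap a coding gene, and reads in shared bins cannot be assigned to either gene. NR2F1-AS1 had 3 and 0 overlaps in CFAP20-KO and 48 and 29 with the tagged protein, against 6 and 6 and 145 and 131 for NR2F1, the gene of a nuclear receptor. Its density with the tagged protein was 15.6 and 10.2 signal per kb, against 163 and 160 for NR2F1. RNASEH2B-AS1, named after a subunit gene of ribonuclease H2, was at 0 in all 4 libraries, while RNASEH2B had 83 and 68 overlaps with the tagged protein.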

How the data were processed

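Signal was measured in 4 libraries, 2 per group, and the sample titles gave group and replicate. The submitters' processing notes name hg38 and, without roles, HOMER 4.8.2, Bowtie2 2.3.5, R 4.0.5 and UMI-tools 1.0.0. How signal was normalized is not given in the sources used here. For each library the authors deposited a table of signal, that is coverage by reads, in 200-bp bins around each gene start, and further deposited columns, of unit other, give position, strand and length. Values came in whole steps of 83 and 276.88 in CFAP20-KO, and of 12.85 and 13.93 with the tagged protein, and a step was taken as 1 read touching 1 bin. A read touched 1.37 bins on average. Intervals and exact tests divide by this and cover counting error only, and the exact tests pool the 2 libraries of a group. A gene that a table lacks was given 0. This was checked for absent members, library by library, where a neighbour's window reached into the member. The bins reached held no reads in 135 of 135 such checks, but they need not cover the whole member. Another 1 column fitted no sample label and was left unused.

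limma 3.58.1 in R 4.3.3 (trend) was run on log2(signal + 276.88), 276.88 being 1 read of the shallowest library, over all genes with signal in 2 or more libraries. Adjustment was by Benjamini-Hochberg, and calls needed an adjusted p under 0.05. Log2 changes are on that scale and understate the change of faint genes. Bins, exons and overlapping genes were read from GENCODE 44, and sequences from hg38. A bin counts as free where no other annotated gene touches it. Another gene is one with a different identifier, which includes a renamed copy of a member that has no match. The fits were tested on simulated data. Alternatives were a pseudocount of 10, 2 other filters, equal totals, exact binomial tests, a replicate block, each library left out, the first 3 kb and free bins alone. The members and lists were chosen with earlier results of these data known. Named members were the 15 with the largest mean signal, the 3 largest per name class, up to 8 called in each direction without overlap of the groups, by smallest p, and listed well-studied genes above 0 in at least 2 libraries. Members with a printed sequence, RP11-115J23.1, DPH6-AS1 and the pairs of -AS genes fall outside that rule and were chosen after their values were seen. Some members that meet these rules are not reported here.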

Additional observations from a re-analysis of the deposited data

How the results depend on the processing

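The count of 138 members past the threshold depended on the processing. It was 310 with a pseudocount of 10 (37.6% of all genes tested rose), 74 of 290 members tested on bins free of other genes (24.9% of all genes tested rose), and 99 of 235 in the first 3 kb (45.2%). It was 0 with no filter, 0 with a stricter filter (of 45 tested), 0 with equal totals, and 0 in either exact binomial test. At an unadjusted p under 0.05, these 5 gave 203, 8, 307, 14 and 16 members, and the 16 of the exact test on shares were all lower. Equal totals moved the median log2 change of all genes tested from 0.37 to 0.13 and that of members from 0.16 to 0.10. Leaving out 1 library gave 151 to 369 members: 160 without CFAP20-KO replicate 1 (111 higher and 49 lower), 151 without CFAP20-KO replicate 2 (115 higher and 36 lower), and 369 without either tagged-CFAP20 replicate, where the lone library is assumed to vary like the other group and the count equals that of tested members at 0 in both controls. With a replicate block, 240 passed (233 higher and 7 lower, beside 37.6% and 0.403% of all genes tested). The deviations of same-numbered libraries had a correlation of -0.04 across genes. With so few reads in CFAP20-KO, this value cannot show whether same-numbered libraries were handled as pairs.

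The summed ratio of 1.72 turned to 0.795 with equal totals, was 1.98 in the first 3 kb and 1.96 on free bins, and ranged from 1.45 to 2.12 as libraries were left out, with 2.12 without CFAP20-KO replicate 2. Of 345 values of named genes under the alternatives, 270 kept their direction or stayed uncalled, 25 passed where they had not, 40 no longer passed and 10 turned. In the exact test on shares, RP11-24I21.1, RP11-390P2.4 and LINC01075 turned to -0.44, and RP11-340A13.3, RP11-554D13.1, RP11-1299A16.3, LATS2-AS1 and RP11-248G5.8 to -0.82, without passing. None of these members had a read in CFAP20-KO, so their share cannot be lower with the tagged protein. The negative sign comes from a small count added to both groups, which weighs more in the shallow control. They are counted among the 10 that turned. RP11-420K8.1 and ANKRD44-IT1 turned to 0.88 and 0.57 without CFAP20-KO replicate 2, and their lowest values, without CFAP20-KO replicate 1, were -1.93 and -1.02. Apart from the scaling, the test and the libraries left out, the cause of these shifts was not tested. Depth limits the control: the pooled CFAP20-KO libraries can hide a signal of 263.0 in any member at 0.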

Other observations

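CRNDE, a long noncoding gene outside the naming rule, had 1 and 0 overlaps in CFAP20-KO and 46 and 54 with the tagged protein. Its signal per kb with the tagged protein was 60.3 and 76.8, its ratio of pooled reads 7.64 (95% exact counting interval 1.33 to 306), its limma adjusted p 0.0377 and its exact binomial adjusted p 0.100.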
